A study of Homo sapiens with 12 samples.

Results

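The 9 genes described here encode lipoprotein receptors (VLDLR, LRP8 and LRP1), an inhibitor of lipoprotein lipase (ANGPTL4), and proteins that build, protect or break down lipid droplets (HILPDA, PLIN2, PNPLA2, LPIN1 and NCEH1). They were chosen by gene symbol with their values over the 4 groups of this study in view, so those values are given as a description, with no p-value for any of the 9. Each is represented by the probe set that the platform annotation pairs with that symbol alone. They are 9 of the 14232 genes with such a probe set.

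The cells were LN229, a cultured line derived from a human glioblastoma. Their RNA was read on 12 exon arrays, 3 for each of 4 groups: 1% oxygen with siRNA against HIF1A, 1% oxygen with siRNA against HIF2A (gene symbol EPAS1), 1% oxygen with a non-targeting control siRNA, and 20% oxygen with that control siRNA. All groups grew in medium with 10% serum, received siRNA 24 h after seeding, and 48 h later went into hypoxia or stayed in normoxia for 16 h, so every array comes from transfected cells. An siRNA is a short RNA that directs the breakdown of a matching transcript, and cells with either HIF siRNA at 20% oxygen were not analysed here. The labels do not say whether the replicates came from separate cultures, so the spread between arrays may be technical.

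Lipoprotein receptors bind lipoproteins and other ligands at the cell surface and carry them into the cell by endocytosis. Fatty acids that a cell takes up or makes can be stored as triglyceride and cholesteryl ester in lipid droplets, and are set free again by lipases. In low oxygen, the hypoxia-inducible factors HIF-1 and HIF-2 bind short DNA elements with the core ACGTG or GCGTG, and lipid storage in place of oxidation is a known feature of hypoxic tumour cells.

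VLDLR and LRP8 differed between the groups in opposite directions, and ANGPTL4 had the largest difference of the 9. PLIN2 gave low values that differed little. For these reasons the promoters of these 4 genes are shown. They are RefSeq sequences of GRCh38.p14, from 250 bases before to 50 bases after the annotated start, read 5′ to 3′ along the gene, and capitals mark the cores ACGTG and GCGTG on either strand (CACGT and CACGC are the same letters read on the opposite strand). VLDLR lies at chr9:2621537-2621836 on the + strand, LRP8 at chr1:53328021-53328320 on the − strand, ANGPTL4 at chr19:8363905-8364204 on the + strand and PLIN2 at chr9:19127443-19127742 on the − strand.
VLDLR: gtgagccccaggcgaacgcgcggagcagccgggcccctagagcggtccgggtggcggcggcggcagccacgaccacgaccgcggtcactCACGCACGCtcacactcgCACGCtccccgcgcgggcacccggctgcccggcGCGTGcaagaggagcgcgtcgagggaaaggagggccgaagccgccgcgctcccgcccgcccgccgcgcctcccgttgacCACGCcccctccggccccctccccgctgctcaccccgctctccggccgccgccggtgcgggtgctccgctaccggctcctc
LRP8: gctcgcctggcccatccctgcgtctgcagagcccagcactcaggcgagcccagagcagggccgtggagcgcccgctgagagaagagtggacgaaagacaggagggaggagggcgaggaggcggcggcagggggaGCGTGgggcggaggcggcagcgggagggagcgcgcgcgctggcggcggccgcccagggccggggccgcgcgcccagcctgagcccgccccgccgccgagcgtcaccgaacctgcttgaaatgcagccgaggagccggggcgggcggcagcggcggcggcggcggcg
ANGPTL4: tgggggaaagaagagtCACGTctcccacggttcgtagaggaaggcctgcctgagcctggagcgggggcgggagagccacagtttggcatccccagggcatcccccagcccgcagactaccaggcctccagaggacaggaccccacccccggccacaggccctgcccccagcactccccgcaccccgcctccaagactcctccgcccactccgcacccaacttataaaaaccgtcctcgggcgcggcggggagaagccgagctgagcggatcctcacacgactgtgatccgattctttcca
PLIN2: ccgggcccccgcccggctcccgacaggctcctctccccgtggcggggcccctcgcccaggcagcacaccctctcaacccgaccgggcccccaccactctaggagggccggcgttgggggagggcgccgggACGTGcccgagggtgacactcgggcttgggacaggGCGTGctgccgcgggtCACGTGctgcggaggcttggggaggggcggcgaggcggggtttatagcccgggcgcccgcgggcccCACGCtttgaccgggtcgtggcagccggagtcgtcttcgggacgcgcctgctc

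The VLDLR window held 5 matches to GCGTG, of which those whose first bases lie at −161 and −157 from the start overlap, and 0 to ACGTG. The LRP8 window held 1 match, to GCGTG at −116. ANGPTL4 had 1 match, to ACGTG at −234. PLIN2 held 3 matches to ACGTG, at −120 and as an overlapping pair at −69 and −68, and 2 to GCGTG, at −85 and −3. These matches are letters in a window, not measured binding: either core occurs in 48.4% of the 35116 promoter windows of the same length, GCGTG in 36.5% and ACGTG in 21.4%. Whether these letters bear on the direction of a gene was not tested. Both VLDLR and LRP8 had a core. LRP1, which was higher in hypoxia, and PNPLA2 had none, NCEH1 had 2 matches to GCGTG, and the 3 LPIN1 windows had 1, 0 and 1. The motif TGATGNAA, a core of the ATF4 response element, was in none of the members' 10 windows and in 3.62% of all windows. HILPDA has no entry in the promoter table.

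All values are log2 expression, errors of differences are limma's standard errors (SE), and each gene is compared only with itself. The arrays differed in range, with medians of 6.49 to 6.82 and upper quartiles of 7.88 (HIF1A siRNA replicate 3) to 8.57. HIF1A measured 8.20, 9.06 and 7.74 with HIF1A siRNA, against 11.72, 11.40 and 11.26 with control siRNA in hypoxia, and fell by 3.13 on the log2 scale (SE 0.269, limma adjusted p = 0.00016, n = 3 each). EPAS1 measured 7.18, 6.99 and 7.18 with HIF2A siRNA, against 9.74, 9.57 and 9.83 with control siRNA, and fell by 2.59 (SE 0.149, limma adjusted p = 3.13e-05). With HIF1A siRNA, EPAS1 measured 8.60, 8.08 and 8.02, and likewise fell by 1.48 (SE 0.149, limma adjusted p = 0.000313). The HIF1A siRNA arrays are thus lower than the hypoxic controls in the transcripts of both factors. In normoxia EPAS1 measured 8.55, 8.42 and 8.59, and it rose by 1.19 in hypoxia with control siRNA (SE 0.149, limma adjusted p = 0.000715). Its difference from normoxia with HIF1A siRNA was −0.29 (SE 0.149) and was not called. Of 10 measured glial and glioma markers, VIM, NES, S100B, EGFR and CD44 were above the array median on all 12 arrays. The astrocyte markers AQP4 and SLC1A3 were below the lower quartile on 12 and 11 arrays, and GFAP was above the median on 1. ALDH1L1 was above the median on 0 arrays and OLIG2 on 9. Below the lower quartile on all 12 arrays were 2 of 6 macrophage markers (PTPRC and AIF1) and 3 of 5 endothelial markers (PECAM1, TEK and KDR). CX3CR1 and CSF1R were below it on 4 and 2 arrays, and CD14, TYROBP, CDH5 and VWF on 0, and none of these 11 markers was above the median on all 12. The adipocyte markers ADIPOQ and CFD were below the lower quartile on 0 arrays, and above the median on 0 and 2.

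VLDLR, which takes up triglyceride-rich lipoproteins and also binds reelin, was high in hypoxia and much lower when HIF1A was targeted. Its log2 values were 9.10, 9.15 and 8.53 with HIF1A siRNA, 10.51, 10.33 and 10.49 with HIF2A siRNA, and 10.71, 10.48 and 10.44 with control siRNA, all at 1% oxygen, against 8.25, 8.06 and 8.14 in normoxia. The HIF2A siRNA and control siRNA arrays in hypoxia overlapped at the top, the HIF1A siRNA arrays stood apart below them, and the normoxic arrays were lowest with no overlap. On average VLDLR was 2.40 higher on the log2 scale in hypoxia than in normoxia (SE 0.157), a 5.27-fold difference. With HIF1A siRNA it was 1.62 lower than with control siRNA (difference −1.62, SE 0.157), and with HIF2A siRNA the difference was −0.11 (SE 0.157). Of the hypoxic difference from normoxia as deposited, 32.6% was left with HIF1A siRNA and 95.6% with HIF2A siRNA. The HIF1A siRNA share is larger with quantile normalization, where the hypoxic difference was 2.55 and the HIF1A siRNA difference was −1.35.

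LRP8, also called apolipoprotein E receptor 2, is a close relative of VLDLR and the other receptor for reelin. Its pattern ran the opposite way. LRP8 measured 9.23, 8.69 and 8.63 with HIF1A siRNA, 8.62, 8.48 and 8.64 with HIF2A siRNA and 8.17, 7.96 and 8.03 with control siRNA in hypoxia, against 9.49, 9.55 and 9.68 in normoxia. The normoxic arrays were the highest, the hypoxic control arrays were the lowest, and the arrays of both HIF siRNAs lay between them and overlapped each other. The hypoxic difference was −1.52 (SE 0.148), which is 2.86-fold lower than in normoxia. It was 0.80 higher with HIF1A siRNA than with control siRNA (SE 0.148) and 0.53 higher with HIF2A siRNA (SE 0.148), and all 3 arrays of each siRNA were above all 3 control arrays. The call with HIF1A siRNA was lost in a fit of the compared groups alone. Of the hypoxic difference as deposited, 47.5% was left with HIF1A siRNA and 65.2% with HIF2A siRNA. The HIF1A siRNA share is smaller with quantile normalization, where the hypoxic difference was −1.37 and the HIF1A siRNA difference was 1.08. LRP8 is thus the one receptor of the 3 whose HIF2A siRNA arrays did not overlap their controls, though that difference was not called.

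**Figure D1:**
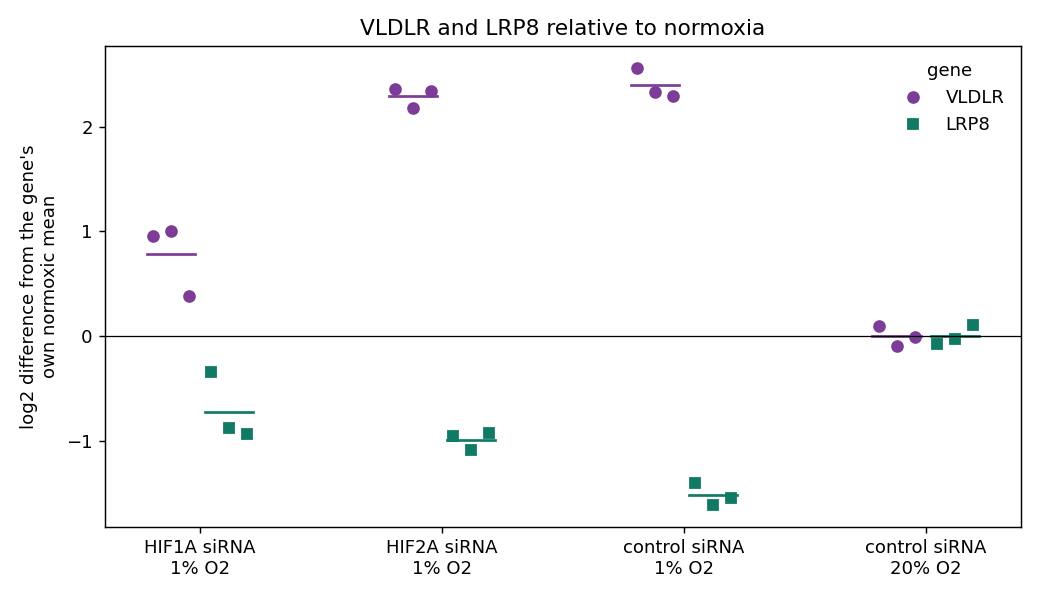
Log2 difference of each VLDLR (circles) and LRP8 (squares) value from that gene's own mean in normoxia, by group, with a line at the mean of 3 arrays. VLDLR lies above 0 and LRP8 below 0 on every hypoxic array, and both are nearer to 0 with HIF1A siRNA, at means of 0.78 and −0.72, than with control siRNA at 1% oxygen, at 2.40 and −1.52.

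The direct difference between the siRNAs also set the receptors apart. VLDLR was 1.51 lower with HIF1A siRNA than with HIF2A siRNA (difference −1.51, SE 0.157), with no overlap. LRP8 differed by 0.27 (SE 0.148) and its arrays overlapped. That LRP8 value was larger under another scaling, at 0.56 after quantile normalization and 0.54 after cyclic loess, where it was called, and 0.078 without HIF1A siRNA replicate 1.

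LRP1, a large endocytic receptor for apolipoprotein E-bearing particles, proteases and matrix proteins, followed the order of VLDLR over a smaller range. It measured 8.61, 8.38 and 8.46 with HIF1A siRNA, 9.01, 8.86 and 9.07 with HIF2A siRNA and 9.22, 8.96 and 8.98 with control siRNA in hypoxia, against 7.68, 7.61 and 7.59 in normoxia. The hypoxic arrays of every siRNA were above all normoxic ones, and the HIF2A siRNA arrays overlapped the hypoxic controls while the HIF1A siRNA arrays lay below both. LRP1 was 1.43 higher in hypoxia (SE 0.107, 2.69-fold) and differed by −0.57 with HIF1A siRNA (SE 0.107), leaving 60.0% of the hypoxic difference. The HIF1A siRNA difference shrank to −0.28 after quantile normalization and −0.31 after cyclic loess, and was then not called, nor was it in a fit of the compared groups alone.

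ANGPTL4 is a secreted protein that inactivates lipoprotein lipase and so limits the release of fatty acids from lipoproteins. It measured 7.36, 7.28 and 6.86 with HIF1A siRNA, 8.99, 8.50 and 8.81 with HIF2A siRNA and 9.35, 9.32 and 9.13 with control siRNA in hypoxia, against 5.88, 6.09 and 5.85 in normoxia. It is the only one of the 9 in which no 2 neighbouring groups overlapped: hypoxic control arrays were highest, then HIF2A siRNA, HIF1A siRNA and normoxia. The hypoxic difference was 3.32 (SE 0.160), or 10.0-fold. The difference from control siRNA was −2.10 with HIF1A siRNA (4.28-fold lower) and −0.49 with HIF2A siRNA (SE 0.160 each), and 36.9% and 85.1% of the hypoxic difference were left with these siRNAs.

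HILPDA is a small droplet protein that inhibits the lipase PNPLA2 (ATGL), and so slows the breakdown of stored triglyceride. It measured 7.70, 7.57 and 7.20 with HIF1A siRNA, 9.93, 9.53 and 10.01 with HIF2A siRNA and 9.81, 9.47 and 9.68 with control siRNA in hypoxia, against 7.19, 7.02 and 7.18 in normoxia. With HIF1A siRNA its lowest array, at 7.20, was just above the highest normoxic array, at 7.19, and the HIF2A siRNA arrays overlapped the hypoxic controls. HILPDA was 2.53 higher in hypoxia (SE 0.162, 5.76-fold) and differed by −2.17 with HIF1A siRNA (4.49-fold lower) and by 0.17 with HIF2A siRNA (SE 0.162 each). Of the hypoxic difference, 14.3% was left with HIF1A siRNA, against 107% with HIF2A siRNA. In the values as deposited, 14.3% was the least of the 7 genes called in hypoxia, and this order was not followed under other scalings.

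PLIN2, the coat protein found on droplets of most cells, gave low values: 4.74, 4.54 and 4.59 with HIF1A siRNA, 4.47, 4.70 and 4.37 with HIF2A siRNA, and 4.42, 4.53 and 4.35 with control siRNA in hypoxia, against 4.37, 4.38 and 4.15 in normoxia. All 12 values were below the lower quartile of their array, which lay between 4.73 and 4.79, and all neighbouring groups overlapped. A further probe set that the annotation pairs with both PLIN2 and GATAD2B was not used, so these values say little of PLIN2 itself. The hypoxic difference was 0.13 (SE 0.115). With HIF1A siRNA in hypoxia the values lay above the normoxic ones, by 0.32 on average (SE 0.115).

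PNPLA2, the lipase that starts triglyceride breakdown on droplets and the target of HILPDA, measured 8.40, 8.10 and 8.09 with HIF1A siRNA, 8.25, 8.16 and 8.05 with HIF2A siRNA and 8.25, 8.31 and 8.22 with control siRNA in hypoxia, against 7.96, 8.22 and 8.14 in normoxia. Its groups differed little: the hypoxic difference was 0.16 (SE 0.113), the HIF2A siRNA difference was −0.11, and all neighbouring groups overlapped in level. The HIF1A siRNA difference of −0.06 turned to 0.21 after quantile normalization, 0.19 after cyclic loess and 0.06 with medians centred, and was called in none of these.

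LPIN1 encodes a phosphatidate phosphatase that makes the diacylglycerol used for triglyceride. It measured 8.79, 8.42 and 8.26 with HIF1A siRNA, 8.88, 8.66 and 8.99 with HIF2A siRNA and 8.85, 8.53 and 8.78 with control siRNA in hypoxia, against 9.62, 9.45 and 9.51 in normoxia. All 9 hypoxic arrays were below the normoxic ones and the hypoxic groups overlapped their neighbours. LPIN1 was 0.81 lower in hypoxia (difference −0.81, SE 0.149, 1.75-fold). With HIF1A siRNA 128% of that difference was present and with HIF2A siRNA 84.5%, so it is the gene of the 7 whose value with HIF1A siRNA was no nearer to normoxia than with control siRNA. The HIF1A siRNA difference of −0.23 (SE 0.149) was not called and turned to 0.05 after quantile normalization and 0.03 after cyclic loess.

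NCEH1, a hydrolase that cleaves cholesteryl esters, followed the pattern of LRP8. It measured 9.18, 8.64 and 8.44 with HIF1A siRNA, 8.55, 8.12 and 8.50 with HIF2A siRNA and 8.15, 7.86 and 8.30 with control siRNA in hypoxia, against 9.27, 9.25 and 9.28 in normoxia. The normoxic arrays lay close together above all hypoxic ones, and the HIF1A siRNA arrays were above the hypoxic controls but overlapped the HIF2A siRNA arrays. The hypoxic difference was −1.16 (SE 0.189, 2.23-fold lower) and the HIF1A siRNA difference was 0.65 (SE 0.189). That second difference was called in 9 of 20 alternative settings, and leaving out any 1 hypoxic control or normoxic array was enough to lose it, as was leaving out HIF1A siRNA replicate 1.

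**Figure D2:**
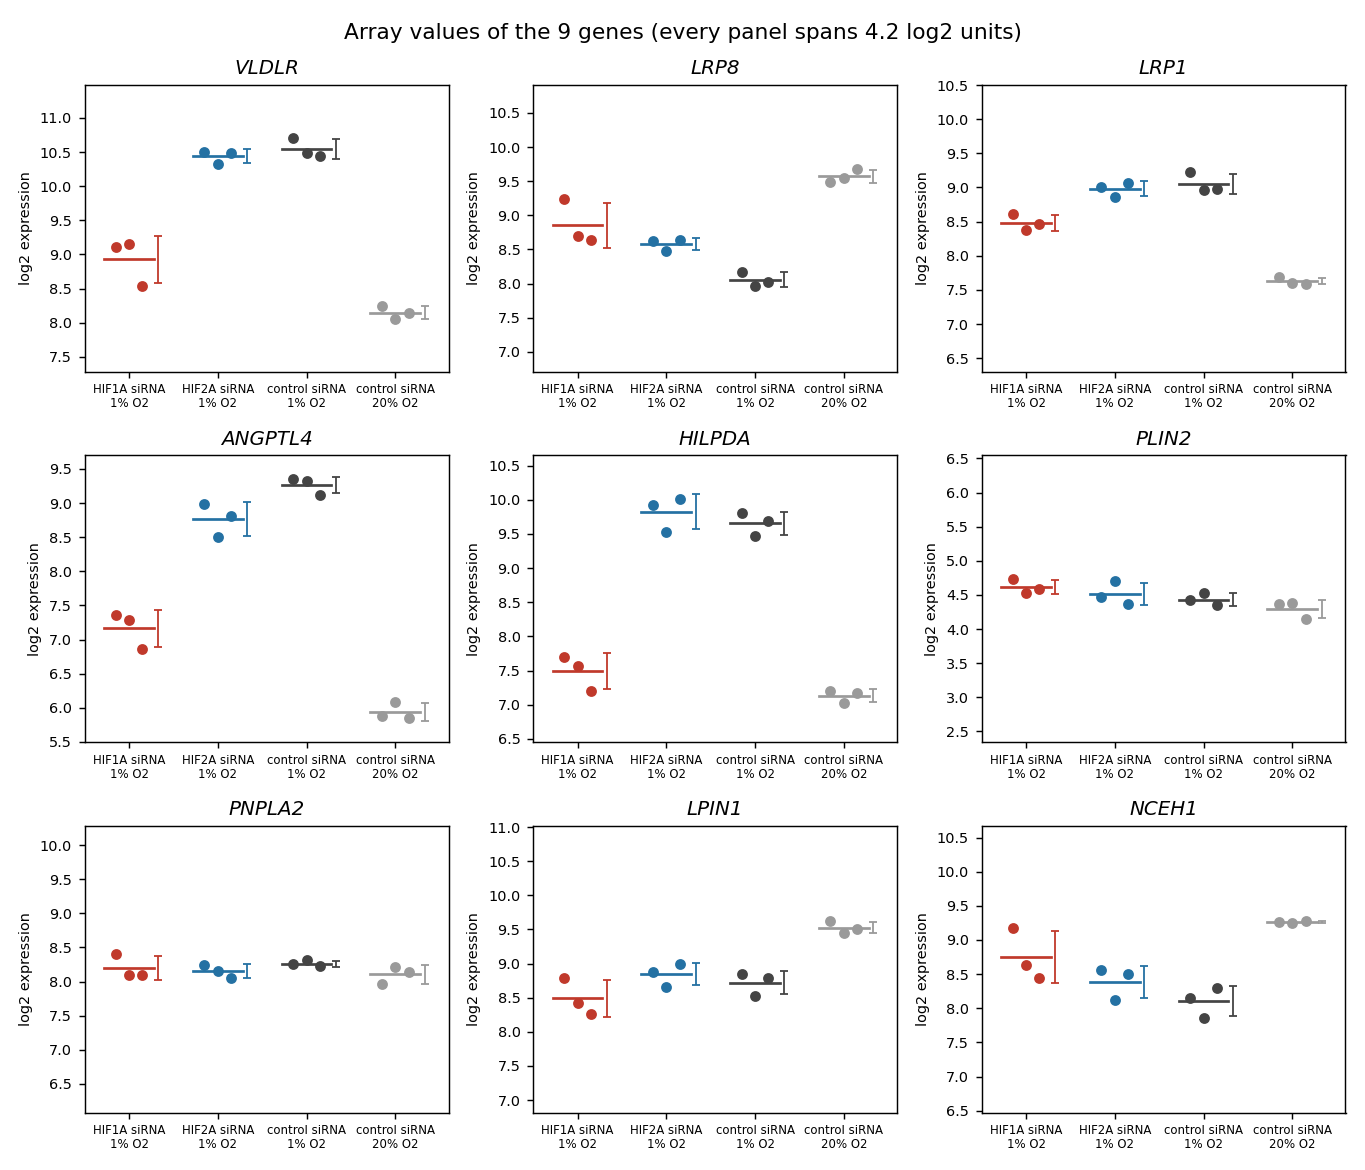
Log2 expression of each gene on every array (points, 3 per group), with the group mean (line) and SD (bar), and with every panel spanning the same number of log2 units. VLDLR, LRP1, ANGPTL4 and HILPDA are lowest in normoxia, LRP8, LPIN1 and NCEH1 are highest there, and PNPLA2 stays nearly level. PLIN2 values lie below the lower quartile of all 12 arrays and say little of that gene.

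In hypoxia against normoxia, 4 of the 9 genes were called higher at an adjusted p under 0.05 (VLDLR, LRP1, ANGPTL4 and HILPDA), 3 were called lower (LRP8, LPIN1 and NCEH1) and 2 were not called. Over all 14232 genes, 3.37% were called higher and 8.95% lower. The groups did not overlap for 5 of the 9 on the higher side and 3 on the lower side, where the shares over all genes were 12.1% and 26.3%. The 5 include PNPLA2, whose lowest hypoxic and highest normoxic values are equal to 2 decimals. The median difference was 0.16 over the 9 genes and −0.03 over all genes. Since the choice of the genes rests on this contrast, nothing is read from these shares.

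With HIF1A siRNA against control siRNA in hypoxia, 2 of the 9 were called higher (LRP8 and NCEH1) and 4 lower (VLDLR, LRP1, ANGPTL4 and HILPDA), where 0.857% and 10.2% of all genes were called. Without overlap, 3 were higher and 4 were lower, beside 11% and 19.8% of all genes. The added gene was PLIN2, at 0.19 (SE 0.115). EPAS1 was also lower on the same HIF1A siRNA arrays, and its part in these differences was not tested. The median was −0.23 over the 9 genes and −0.05 over all genes. This comparison and the one above share the hypoxic control arrays, so an array value that is high there by error moves both in opposite directions.

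With HIF2A siRNA against control siRNA, none of the 9 was called by limma, at 0 higher and 0 lower. Over all genes, 0% were called higher and 0.00703% lower, which is EPAS1 alone, and 502 genes had an unadjusted p under 0.05. LRP8 was the 1 gene that was higher without overlap and ANGPTL4 the 1 that was lower, beside 4.46% and 4.9% of all genes. The median was 0.08 over the 9 genes and −0.01 over all genes. The count of calls among the 9 was 0 in every alternative setting as well.

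With HIF1A siRNA against HIF2A siRNA, 0 of the 9 were called higher and 4 lower (VLDLR, LRP1, ANGPTL4 and HILPDA), beside 0.899% and 8.53% of all genes. The same 4 were the ones that did not overlap on the lower side, and 0 did so on the higher side, beside 18.7% and 11.8% of all genes. HILPDA had the largest of these differences, at −2.33 (SE 0.162), followed by ANGPTL4 at −1.60 and VLDLR at −1.51, while LRP1 differed by −0.50 (SE 0.107). The median was −0.35 over the 9 genes and −0.06 over all genes. The LRP1 call was lost after quantile normalization (−0.21) and cyclic loess (−0.23), and also without HIF1A siRNA replicate 3, HIF2A siRNA replicate 1 or HIF2A siRNA replicate 3.

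**Figure D3:**
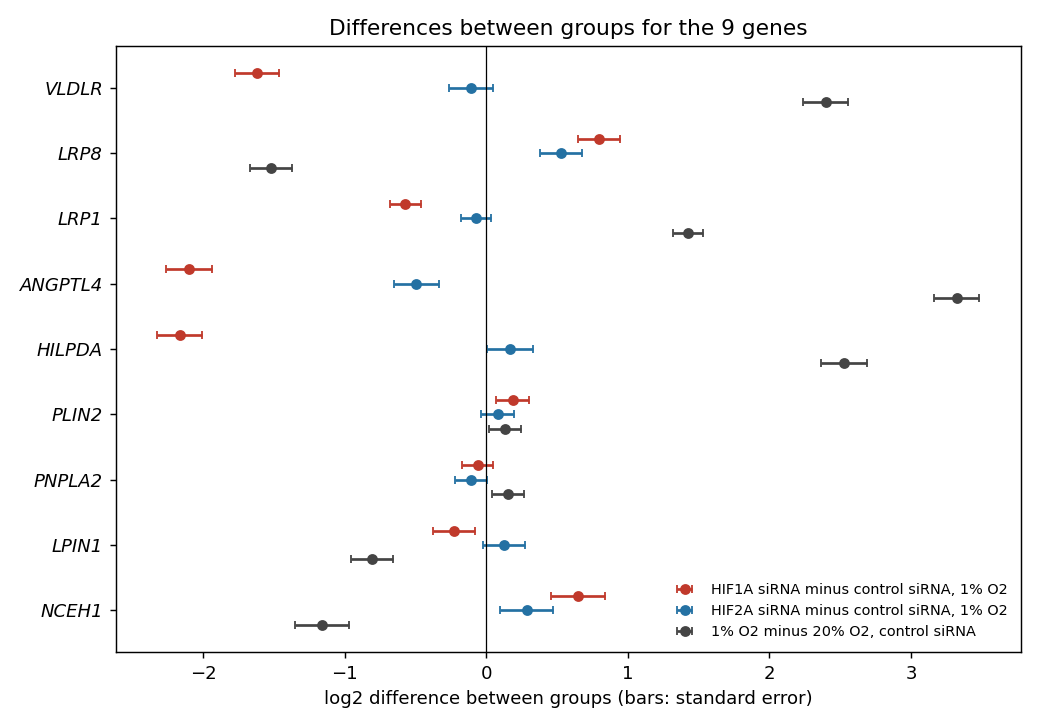
Log2 difference between groups for each of the 9 genes (points) with limma's standard error (bars), for HIF1A siRNA and HIF2A siRNA against control siRNA at 1% oxygen and for 1% against 20% oxygen with control siRNA. The HIF1A siRNA point lies on the opposite side of 0 from the oxygen point for VLDLR, LRP8, LRP1, ANGPTL4, HILPDA and NCEH1, and for PNPLA2, whose HIF1A siRNA value of −0.06 changes sign under other scalings, and the HIF2A siRNA points lie between −0.49 and 0.53.

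The genes whose 12 values, each centred on its own mean, lay closest to those of VLDLR were DEPP1, at a mean absolute difference of 0.145 log2 units, PFKFB4 at 0.160, ENO2 at 0.163, PDK1 at 0.178 and PTGS2 at 0.179. VLDLR itself deviated from its mean by 0.977 on average. PFKFB4, ENO2 and PDK1 encode enzymes of glycolysis and its control. Closest to LRP8 were NCEH1 at 0.134, SLC5A6 at 0.138, UCK2 at 0.139, GEMIN6 at 0.140 and RRS1 at 0.148, where LRP8 itself deviated by 0.481. These include a vitamin transporter (SLC5A6), a kinase of pyrimidine salvage (UCK2) and a ribosome assembly factor (RRS1). The likeness is over 12 arrays that fall into 4 groups, and it says which genes had similar values and no more.

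Other genes of lipoprotein uptake, droplets and fatty acid use were taken from 8 lists of 106 genes that leave out the 9 above, of which 80 had a single-symbol probe set. The rest of the listed genes were not analysed here. In hypoxia 1 of the 80 rose (SLC27A3), 19 fell and 60 did not pass the test, with a median of −0.08 beside −0.03 over all genes, of which 3.37% were called higher and 8.95% lower. The 20 calls became 7 to 12 without any 1 of hypoxic control replicates 2 and 3 and the 3 normoxic arrays. With HIF1A siRNA 1 rose, 6 fell and 73 did not pass, where 0.857% and 10.2% of all genes were called, so these counts do not set the lists apart. Those 7 calls became 14 without HIF1A siRNA replicate 2, and 3 or 4 without HIF1A siRNA replicate 3, hypoxic control replicate 1 or 3, or normoxic replicate 2 or 3. With HIF2A siRNA limma called 0 of the 80, and 2 had an unadjusted p under 0.05. In bulk RNA, fewer cells carrying a transcript and less of it per cell cannot be told apart.

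None of the 7 other measured receptors of the lipoprotein receptor list passed the test in any comparison, and their hypoxic differences ran from −0.26 to 0.39. Among 9 receptor ligands, chaperones and adaptors, 1 changed: MYLIP, the ubiquitin ligase that sends VLDLR and LRP8 for degradation. MYLIP measured 7.26, 7.43 and 7.50 in hypoxia, against 8.08, 7.91 and 7.96 in normoxia, a fall of 0.59 (SE 0.114, limma adjusted p = 0.00729, n = 3 each). With either HIF siRNA its difference from control siRNA did not pass the test.

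Among 13 genes of lipases and fatty acid uptake, 1 rose and 2 fell in hypoxia. SLC27A3, an acyl-CoA synthetase of the fatty acid transport protein family, measured 7.16, 7.15 and 7.08 with HIF1A siRNA and 7.59, 7.74 and 7.65 with control siRNA in hypoxia, against 6.92, 7.01 and 7.13 in normoxia. It rose by 0.64 in hypoxia (SE 0.103, limma adjusted p = 0.00281) and fell by 0.53 with HIF1A siRNA (SE 0.103, limma adjusted p = 0.011), a call lost after quantile normalization (−0.34) and in a fit of the compared groups alone. Its relative SLC27A4 fell by 0.72 in hypoxia (SE 0.093, limma adjusted p = 0.000897). LPL, the lipase that ANGPTL4 inhibits, measured 7.13, 6.79 and 7.04 in hypoxia, against 7.78, 7.60 and 7.73 in normoxia, and fell by 0.72 (SE 0.192, limma adjusted p = 0.0334), though leaving out any 1 of 5 hypoxic control or normoxic arrays took its adjusted p as high as 0.135. GPIHBP1, which anchors LPL on capillary endothelium, rose by 0.59 with HIF1A siRNA (limma adjusted p = 0.0306), a call lost without HIF1A siRNA replicate 2 or 3 or hypoxic control replicate 1 or 3.

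Among 9 genes of droplet coat and formation, AUP1 fell by 0.49 (limma adjusted p = 0.0399) and HSD17B11 by 0.71 (limma adjusted p = 0.0411) in hypoxia. Both are proteins that sit on droplets, and both calls were lost in at least 6 of the settings that leave out 1 array. FITM1, which helps package triglyceride into droplets, was 0.44 higher with HIF1A siRNA than with HIF2A siRNA (limma adjusted p = 0.037), also a call that single arrays removed.

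Among 11 genes of triglyceride synthesis, 0 rose and 3 fell in hypoxia, a split that turned to 2 higher and 1 lower with quantile normalization or cyclic loess and was 2 higher and 3 lower with medians centred. GPAT3, an acyltransferase of its first step, fell by 0.83 (SE 0.158, limma adjusted p = 0.00685), GPAT4 fell by 0.46 and DGAT2, which adds the last fatty acid, fell by 0.44. The GPAT4 and DGAT2 calls were lost without any 1 of the hypoxic control or normoxic arrays. They were also lost with quantile normalization, at −0.31 for GPAT4 and −0.28 for DGAT2, and with cyclic loess, at −0.29 and −0.28. AGPAT5, an acyltransferase of the second step, measured 7.52, 7.21 and 6.85 with HIF1A siRNA and 8.59, 8.35 and 8.92 with HIF2A siRNA, against 8.93, 8.43 and 8.45 with control siRNA. It fell by 1.41 with HIF1A siRNA (SE 0.204, limma adjusted p = 0.00258). Its normoxic values of 8.12, 7.77 and 7.95 lay above those with HIF1A siRNA and below those with control siRNA in hypoxia. That hypoxic difference of 0.66, the highest of the list, was not called in the values as deposited.

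Of 8 lipolysis genes, 3 fell in hypoxia and the list's median was −0.30. ABHD5, the coactivator of PNPLA2, measured 7.56, 7.32 and 7.35 in hypoxia, against 8.38, 8.13 and 8.27 in normoxia, and fell by 0.85 (SE 0.162, limma adjusted p = 0.00702). The HIF1A siRNA arrays, at 7.69, 7.49 and 7.09, overlapped the hypoxic controls. ABHD6 fell by 0.58 and MGLL, which cleaves monoglycerides, by 0.49, and these 2 calls were lost without hypoxic control replicate 2 or 3 or normoxic replicate 1 or 3, and that of ABHD6 also without normoxic replicate 2. MGLL was not called with quantile normalization, at −0.33, or with cyclic loess, at −0.32. DDHD2, a triglyceride hydrolase of the brain, measured 8.57, 8.06 and 7.73 with HIF1A siRNA, against 9.52, 9.08 and 9.46 with control siRNA, and fell by 1.23 (SE 0.211, limma adjusted p = 0.00624). Its normoxic values were 9.43, 9.11 and 9.18, and its hypoxic difference was not called.

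Of 8 genes of cholesteryl ester and cholesterol transport, SOAT1, which makes the cholesteryl esters that NCEH1 cleaves, fell in hypoxia. It measured 8.87, 8.41 and 8.70 in hypoxia, against 10.07, 9.70 and 9.81 in normoxia, a fall of 1.20 (SE 0.242, limma adjusted p = 0.00875). SOAT1 and NCEH1 were thus both lower in hypoxia. NPC1 and STARD4, which move cholesterol out of lysosomes and between membranes, fell by 0.54 and 0.56 with HIF1A siRNA, calls lost when single arrays were left out, among them HIF1A siRNA replicate 3 and hypoxic control replicate 1 or 3. Neither was called with quantile normalization, at −0.26 for NPC1 and −0.31 for STARD4, or with cyclic loess, at −0.28 and −0.32. Their hypoxic differences were not called, with normoxic means of 9.37 and 9.71 beside 9.17 and 9.65 in the hypoxic controls.

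Fatty acid oxidation was the list with the most calls, with 7 of 15 genes lower in hypoxia, 0 higher and a median of −0.35, where 8.95% of all genes were called lower and 3.37% higher. HADH, an enzyme of the mitochondrial spiral, measured 8.70, 8.53 and 8.86 in hypoxia, against 9.45, 9.30 and 9.44 in normoxia, and fell by 0.70 (SE 0.125, limma adjusted p = 0.00479). ACADM, the medium-chain acyl-CoA dehydrogenase, fell by 0.92 and CPT2, which hands fatty acids to the mitochondrial matrix, by 0.69, and both calls were lost without hypoxic control replicate 2 or normoxic replicate 1 or 3, and that of CPT2 also without hypoxic control replicate 1 or 3. The other 4 that fell, named here after their values were seen, were CPT1A, SLC25A20 and the nuclear receptors PPARD and PPARG, the last best known for promoting fat storage. With HIF1A siRNA 1 of the 15 changed: ACAA2, the thiolase of the last step, fell by 0.86 (limma adjusted p = 0.0351), a call lost in the fit of the compared groups alone and without HIF1A siRNA replicate 1 or 3, HIF2A siRNA replicate 1, hypoxic control replicate 1 or 3, or normoxic replicate 2 or 3. ACAA2 averaged 7.18 in normoxia, 7.13 with control siRNA in hypoxia and 6.27 with HIF1A siRNA, and its hypoxic difference was not called. With quantile normalization, cyclic loess or medians centred, 1 gene of the list was called higher in hypoxia and 7 lower. The 4 genes named after their values were seen were not followed one by one over the alternatives. Leaving out 1 array took the lower calls over all 80 lipid genes to as few as 6, so not all 7 of this list held.

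With HIF1A siRNA against HIF2A siRNA, 1 of the 80 genes rose (FITM1) and 5 fell: AGPAT5 by 1.42, DDHD2 by 1.43, ACAA2 by 0.95, ACADM by 0.83 and SLC27A3 by 0.51. The SLC27A3 difference was −0.31 and not called with quantile normalization, and with only the compared groups in the fit AGPAT5 alone was called. Over all 20 alternative settings, 7 of the 16 genes named by the rule for the lists kept their call in hypoxia (ABHD5, GPAT3, HADH, MYLIP, SLC27A3, SLC27A4 and SOAT1). In each comparison with HIF1A siRNA, AGPAT5 alone did so.

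**Figure D4:**
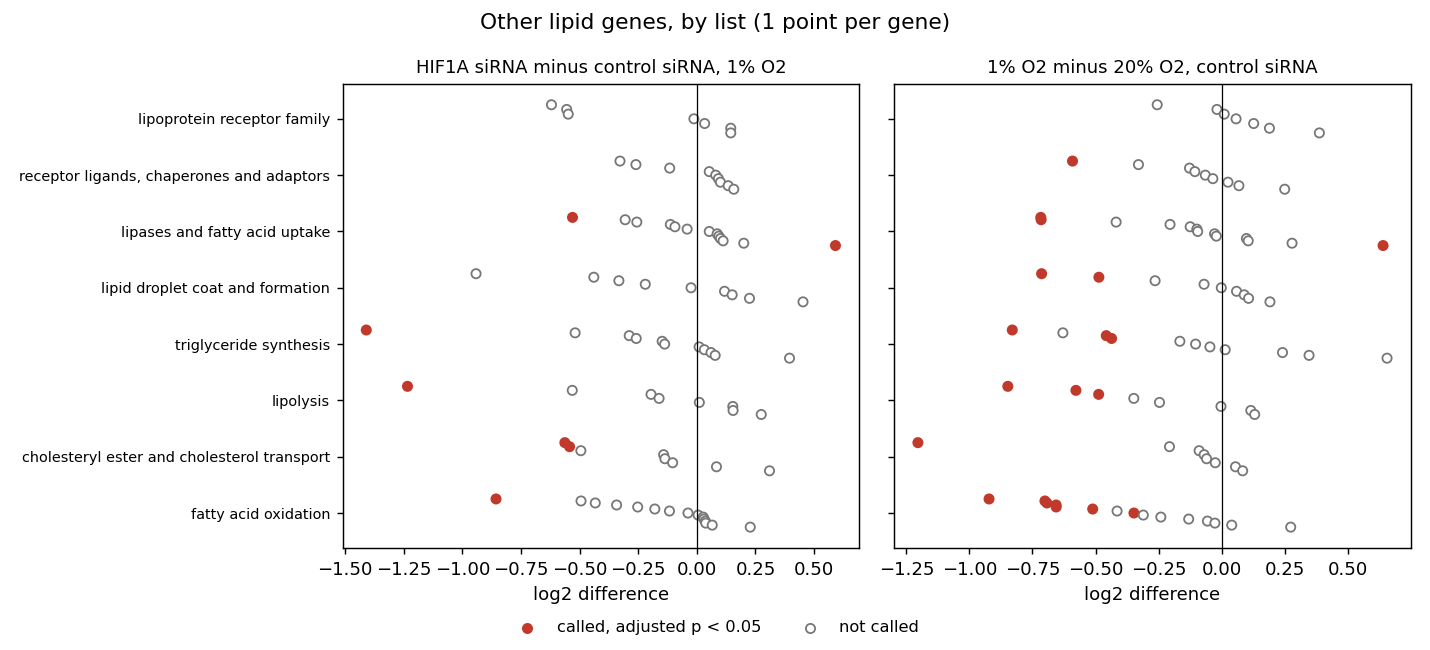
Log2 difference of every measured gene of 8 lipid lists (1 point per gene, filled where the adjusted p was under 0.05), for HIF1A siRNA minus control siRNA at 1% oxygen and for 1% minus 20% oxygen with control siRNA. In the oxygen panel 19 of the 20 filled points lie below 0, as against 6 of 7 in the siRNA panel; with quantile normalization the oxygen split is 5 above and 16 below 0, and the siRNA split is 7 above and 3 below.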

How the data were processed

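The authors deposited 1 value per probe set and array for 22011 probe sets, treated here as log2 expression because they have decimals and a range that base 2 keeps within a scanner's limits. Partek and the build hg18 appear in the submitters' processing notes. How background was corrected and values summarized and normalized is not given in the sources used here, so splice forms were not separated and values were used as deposited. Per the labels' protocols, RNA came from a Qiagen kit and was labelled by an Affymetrix whole transcript assay.

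The platform annotation pairs 14432 probe sets with 1 symbol, 2408 with several and 5171 with none here. Of several single-symbol probe sets for a gene (197 genes), the one with the highest mean was kept, leaving 14232 genes. A mean per group was fitted over all 12 arrays with limma 3.58.1 in R 4.3.3, with tables read by data.table (release 1.17.8), and moderated with eBayes and checked on simulated data. Benjamini-Hochberg adjustment ran over the 14232 genes, and calls are those with an adjusted p under 0.05. The number of arrays limits the precision, and p-values reflect the spread of these arrays alone. The share of a hypoxic difference left with an siRNA is the log2 difference from normoxia with that siRNA as a percent of that with control siRNA. Shares were computed from the values as deposited only, and they depend on the scaling.

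The members and all gene lists were chosen with earlier results of these data known. Besides the members, the text names HIF1A and EPAS1, in each list and comparison up to 3 called genes with the largest rise and up to 3 with the largest fall, and the 5 genes closest to VLDLR and to LRP8. Another 4 are named where the text says so, after their values were seen. Motifs were searched on both strands with Python 3.11.15, and plots used matplotlib 3.10.9. Alternatives were 3 other scalings, a filter on low values, trended robust moderation, the compared groups alone, the replicate number as a block, averaged probe sets, and leaving out each array.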

Additional observations from a re-analysis of the deposited data

How the results depend on the processing

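Among the members, HIF1A, EPAS1 and the genes named by the rule for the lists, no direction of a called gene reversed in the 20 alternatives. CPT1A, SLC25A20, PPARD, PPARG and the genes other than members closest to VLDLR and LRP8 were not followed there. The calls of VLDLR, ANGPTL4 and HILPDA for hypoxia, for HIF1A siRNA against control siRNA and for HIF1A siRNA against HIF2A siRNA held in all 20. Array distributions differ, and with quantile normalization or cyclic loess VLDLR differed by −1.35 and −1.38 with HIF1A siRNA against control siRNA (−1.62 as deposited) and by −1.23 and −1.26 against HIF2A siRNA (−1.51), while LRP8 differed by 1.08 and 1.06 (0.80) and by 0.56 and 0.54 (0.27). The median of all genes moved from −0.05 to 0.07 for HIF1A siRNA against control siRNA and from −0.06 to 0.08 against HIF2A siRNA with quantile normalization. Calls over all genes, higher and lower, were 480 and 1274 in hypoxia, and 946 and 1200 with quantile normalization, 1059 and 1289 with cyclic loess and 767 and 1438 with medians centred. For HIF1A siRNA against control siRNA they were 122 and 1451, then 726 and 1124, 545 and 1183, and 509 and 1272, and against HIF2A siRNA 128 and 1214, then 799 and 981, 530 and 1019, and 654 and 1086. For the 80 listed lipid genes they were 1 and 19 in hypoxia, then 5 and 16, 7 and 16, and 4 and 19, and 1 and 6 with HIF1A siRNA against control siRNA, then 7 and 3, 5 and 4, and 5 and 6.

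With only the compared groups in the fit, which leaves fewer arrays, calls with HIF1A siRNA against control siRNA numbered 137 (1573 over all arrays), 3 of the 9 members (6, with LRP8, LRP1 and NCEH1 no longer called) and 1 lipid gene (7), and against HIF2A siRNA 127 (1342) and 1 lipid gene (6). DDHD2 lost its calls there alone, at adjusted p = 0.0714 and 0.0501 by limma. Lipid genes called with HIF1A siRNA against control siRNA numbered 11 with medians centred and 11 with the filter on low values, and against HIF2A siRNA 12 with quantile normalization, 10 with medians centred and 11 with the filter. With HIF2A siRNA against control siRNA, 4 genes were called with quantile normalization, 4 with cyclic loess and 3 with medians centred, in place of 1. PLIN2 fell below the filter and has no value there. The cause of these changes was not tested.

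Leaving out 1 array at a time gave 806 to 2465 genes called in hypoxia, 390 to 2648 with HIF1A siRNA against control siRNA, 1 with HIF2A siRNA and 268 to 2557 between the siRNAs. The lowest counts came without normoxic replicate 1, hypoxic control replicate 1 and HIF2A siRNA replicate 1, and the highest for the siRNA comparisons without HIF1A siRNA replicate 2. Member calls were 7, 5 to 6, 0 and 3 to 5, and lipid gene calls 7 to 26, 3 to 14, 0 and 2 to 14. VLDLR ranged from 2.31 to 2.45, −1.73 to −1.42, −0.16 to −0.02 and −1.62 to −1.31 in these comparisons, and LRP8 from −1.58 to −1.47, 0.61 to 0.91, 0.48 to 0.59 and 0.078 to 0.38, where 0.61 and 0.078 are without HIF1A siRNA replicate 1. The labels number replicates 1 to 3 in every group. Deviations of same-numbered arrays correlated from −0.0254 to 0.466 for number 1, −0.444 to 0.597 for 2 and −0.488 to 0.158 for 3. Of the 12 arrays, 4 correlated best with their own number. These values do not show a pairing by number, but they cannot exclude one, since the arrays also differ in range. With the replicate number as a block, 1720, 1266, 1 and 1101 genes, 7, 6, 0 and 4 members, and 21, 6, 0 and 5 lipid genes were called in hypoxia, with HIF1A siRNA, with HIF2A siRNA and between the siRNAs. Under the block ACAA2, NPC1 and STARD4 were not called with HIF1A siRNA against control siRNA, at limma adjusted p = 0.0528, 0.0535 and 0.0506, nor was ACADM between the siRNAs, at 0.0676.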
